A study of Mus musculus with 2 samples.

Results

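The transcripts of 8 genes that export, store and take up iron (Slc40a1, Fth1, Ftl1, Ncoa4, Tfrc, Trf, Slc11a1 and Slc11a2) were followed across the cell types of the mouse spleen and along the stages of the neutrophil. The genes were chosen by symbol, and all 8 were found among the 26124 genes of the count matrices. Single cells were sequenced from their 3′ ends in droplets (10x Genomics), where each captured transcript carries a unique molecular identifier (UMI) and is counted once. A spleen suspension of a control mouse, called wild-type, was compared with that of a Berkeley mouse, a model of sickle cell disease (SCD), to ask how the iron genes differ between cell types when red cells are destroyed continuously.

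Both animals were labelled homozygous for the alpha globin deletion Hbatm1Paz and carried the human sickle globin transgene Tg(HBA-HBBs)41Paz. The wild-type control was heterozygous for the beta globin deletion Hbbtm1Tow, had the transgene on a single chromosome and did not sickle, so it was not free of the disease alleles. The SCD mouse was homozygous at Hbbtm1Tow and formed sickle cells. The counts followed the labels for beta globin, with the mouse genes Hbb-bs and Hbb-bt together at 4048 CPM (UMIs per 1000000 UMIs) over all wild-type cells and 35.2 CPM over all SCD cells. They went against them for alpha globin, since the mouse genes Hba-a1 and Hba-a2, labelled deleted in both animals, were together at 1751 and 1458 CPM. Which part of these genes the deletion removes is not given in the sources used here, and what these counts stem from was not tested. Mice were 12 to 16 weeks old and untreated. Mature red cells were lysed, and the dendritic cells (DCs) were enriched by removing other cells with magnetic beads, so that cells the beads bind were thinned out by the preparation. The mouse model has a mixed genetic background. Each group held 1 library, so no difference has a replicate check and no test was run. Values in brackets are exact 95% intervals that cover counting error only.

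Ferroportin, encoded by Slc40a1, is the iron exporter of mammalian cells and is best known from macrophages that recycle iron from old red cells. Ferritin stores iron in a shell of heavy (Fth1) and light (Ftl1) chains and is handed to the lysosome by the receptor Ncoa4 when iron is needed. Transferrin (Trf) carries iron in plasma and enters cells through the transferrin receptor (Tfrc), after which DMT1 (Slc11a2) moves the iron out of the endosome, while NRAMP1 (Slc11a1) moves metal ions across the phagosome membrane of macrophages and neutrophils.

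Several of these mRNAs hold iron-responsive elements, short hairpins in the untranslated region (UTR) to which iron regulatory proteins bind when iron is scarce. A hairpin near the start of an mRNA blocks its translation, and hairpins in the 3′ UTR protect it from decay. The counts below are of mRNA, so they can carry an effect of the second kind but not of the first. The letters were C, then 5 of any base (N), then CAGTG, then 6 of any base. Of these, 5 stem bases had to pair in a row (G with U allowed), so elements with another stem were not searched for. The letters were searched on the transcript strand of GENCODE vM21 UTRs (GRCm38), and 4 members held 7 matches. They are printed 5′ to 3′ with the 6-base loop in capitals, to show the UTR in which each match lies.
Slc40a1 5′ UTR, chr1:45925471-45925487, minus strand: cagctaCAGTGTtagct
Fth1 5′ UTR, chr19:9982738-9982754, plus strand: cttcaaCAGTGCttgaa
Ftl1 5′ UTR, chr7:45459785-45459801, minus strand: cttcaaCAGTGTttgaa
Tfrc 3′ UTR site 1, chr16:32631225-32631241, plus strand: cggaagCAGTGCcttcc
Tfrc 3′ UTR site 2, chr16:32631604-32631620, plus strand: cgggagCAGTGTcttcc
Tfrc 3′ UTR site 3, chr16:32631669-32631685, plus strand: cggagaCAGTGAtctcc
Tfrc 3′ UTR site 4, chr16:32631716-32631732, plus strand: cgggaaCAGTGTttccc
The letters occurred in the 5′ UTR of 31 of 20916 genes (0.148%) and in the 3′ UTR of 129 of 21045 genes (0.613%). In the 5′ UTR they were held by the exporter and both ferritin chains, with the same left arm in both ferritin chains. In the 3′ UTR they were held by Tfrc alone among the members. A match is a description of letters and no measurement of binding, and no match says only that these letters were not found.

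There were 10845 wild-type cells with 97880318 UMIs and 13447 SCD cells with 189688217 UMIs. After filtering on 500 to 5000 detected genes per cell and on mitochondrial and ribosomal content, 9423 wild-type cells (median 4884 UMIs) and 10635 SCD cells (median 8282 UMIs) were kept. The libraries shared 88 barcodes, 22 of them among kept cells. Cells were clustered again here without the iron genes and named from marker genes, so every class is a neutrophil-like, monocyte-like or similar cluster and is written below without that suffix. The markers checked for neutrophils (17), monocytes (10), conventional DCs (10), plasmacytoid DCs (11), red pulp macrophages (12) and erythroid cells (11) were all detected in both libraries. Not every gene of the erythroid list was among those checked, and the lists of the subtypes were not part of this check. Cells of both libraries were found for neutrophils (4339 wild-type and 7077 SCD cells), monocytes (1048 and 1345), conventional DCs (2447 and 653), plasmacytoid DCs (pDCs; 713 and 558), red pulp macrophages (298 and 155) and erythroid cells (55 and 52). B cells (20 and 288) were not compared, and 503 and 507 cells stayed unnamed. Levels are UMIs of a gene per 1000000 UMIs of a class in a library (CPM) and ratios are SCD over wild-type.

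**Figure D1:**
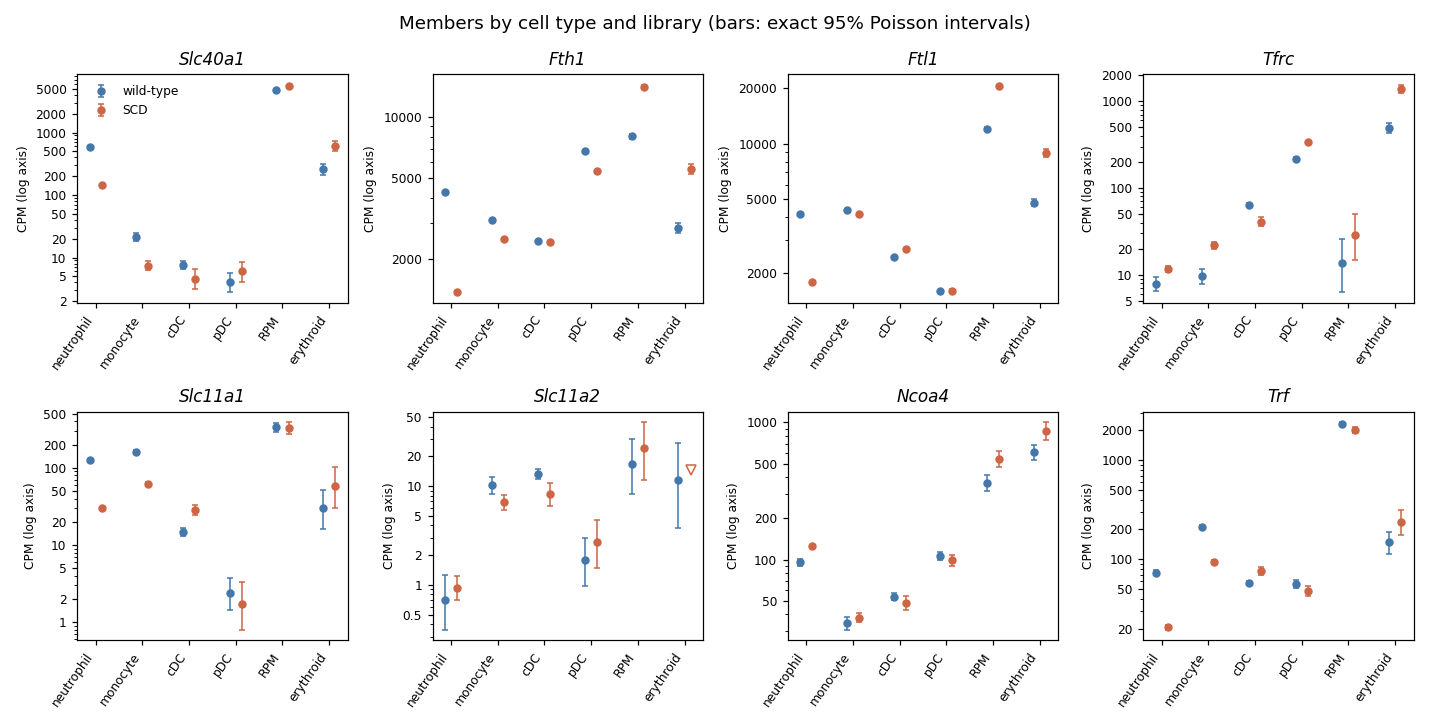
Level of each of the 8 genes (CPM, log axis) in each cell type, with wild-type and SCD points and exact 95% Poisson intervals for counting error; an open triangle marks a gene listed at 0, drawn at the level that 3 UMIs would give. Slc40a1 stood highest in red pulp macrophages, at 4760.0 and 5631 CPM, and Tfrc in the filtered erythroid cells, at 490.5 and 1381 CPM.

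Slc40a1 (ENSMUSG00000025993, chr1:45908068-45926523, minus strand) was highest in red pulp macrophages, the cells that clear old red cells in the spleen. They held 4760.0 CPM (4595 to 4930.0) in wild-type cells and 5631 CPM (5405 to 5865) in SCD cells, with a log2 ratio of 0.24 (0.16 to 0.32). The SCD library was higher by this sum, but the median macrophage was not, at 4540.3 CPM per wild-type cell (quartiles 2682 to 6546 CPM) and 4132 CPM per SCD cell (2537 to 5969 CPM). The log2 ratio was -0.098 when each cell weighed the same, and it ranged from -0.32 to 0.49 over 13 alternative settings, so no direction can be given for ferroportin in macrophages. Almost every macrophage held the transcript at matched depth, with a UMI in 91.2 to 97.5% of wild-type and 92.6 to 99.2% of SCD cells (intervals) after thinning each cell to 1000 UMIs, for which 80 and 20 shallower cells were left out.

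Next in order came the mature neutrophils, at 899 CPM (879 to 919) in wild-type cells and 509.6 CPM (490.1 to 529.6) in SCD cells. Erythroid cells followed in the wild-type library, at 257 CPM (211 to 309), and stood above the mature neutrophils in the SCD library, at 612 CPM (509.6 to 729), where the intervals overlap. The erythroid place in this order rests on few cells that also held macrophage transcripts (657 and 2351 CPM), and without the upper limit on genes per cell the class was at 71.9 and 51.9 CPM. Immature neutrophils were lower, at 143 and 119 CPM. Conventional DCs, pDCs and classical monocytes were at or under 13.8 CPM in both libraries. After thinning, 0.698% (0.407 to 1.12) of wild-type and 0.772% (0.251 to 1.79) of SCD conventional DCs held a UMI, and 0.281% (0.034 to 1.01) and 0.359% (0.0435 to 1.29) of pDCs. How much free RNA adds to any class was not measured. Mature neutrophils were far above these shares, at 55.2% (53.6 to 56.9) and 39.8% (37.5 to 42.2). Without thinning the shares were 78.9% and 67.7%, at median depths of 2328 and 2707 UMIs. With 4339 and 7077 cells, neutrophils held most of the ferroportin transcripts of the suspension, 67.2% of all Slc40a1 UMIs of kept wild-type cells and 71.4% of those of SCD cells, against 23.2% and 19.4% in red pulp macrophages. The mature neutrophils alone held 60.4% of the UMIs of wild-type cells but 21.5% of those of SCD cells.

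To compare the classes further, Slc40a1 was set against 6 macrophage transcripts (C1qa, C1qb, C1qc, Vcam1, Cd5l and Axl). Vcam1 was not confined to macrophages, at 58.6 and 69.5 CPM in promyelocytes of the neutrophil line and 117 and 109 CPM in mature DCs. Wild-type red pulp macrophages held 0.288 (0.276 to 0.299) Slc40a1 UMIs per macrophage transcript UMI, and SCD ones 0.263 (0.251 to 0.275). Classical monocytes, at 0.316 (0.248 to 0.399) and 0.291 (0.222 to 0.379), overlapped that ratio. Conventional DCs, at 0.154 (0.129 to 0.182), lay below it in wild-type cells and overlapped it in SCD cells, at 0.248 (0.162 to 0.370), and pDCs overlapped it in wild-type cells, at 0.262 (0.172 to 0.390), and lay above it in SCD cells, at 0.816 (0.491 to 1.35). Mature neutrophils held 41.7 (36.2 to 48.3) and 36.8 (29.1 to 47.4), and immature neutrophils 4.93 (4.06 to 6.04) and 4.87 (4.51 to 5.27). Promyelocytes held 1.39 (1.07 to 1.81) and 0.969 (0.892 to 1.05). The ratio in mature neutrophils lay above that of the macrophages in both libraries. Slc40a1 in neutrophils without any of the 6 transcripts gave a log2 ratio of -1.96 against -1.99 in all neutrophils. Only 4.54% of wild-type and 10.1% of SCD neutrophils held any of them, so leaving these cells out could change little. The source of the neutrophil transcripts was not tested.

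**Figure D2:**
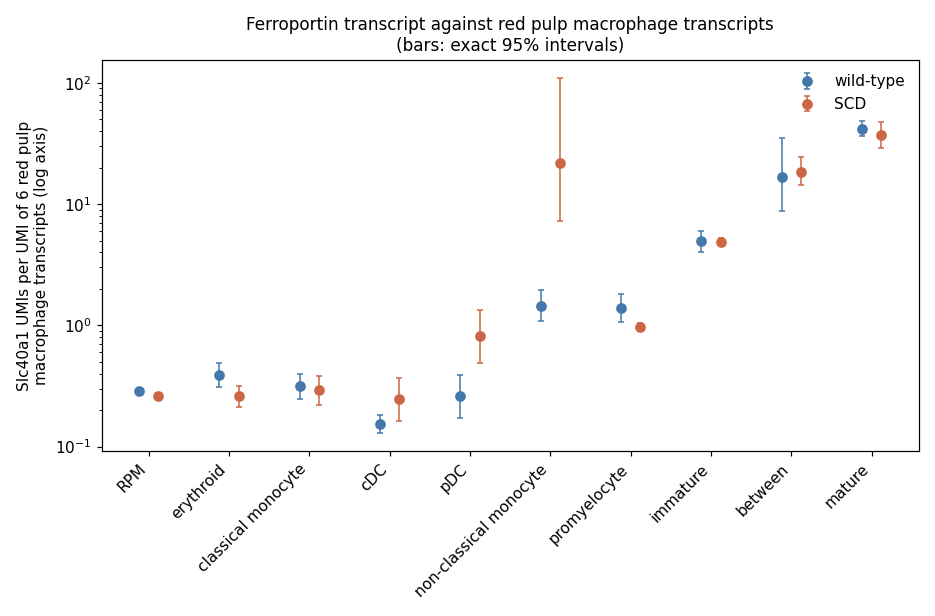
Slc40a1 UMIs per UMI of 6 red pulp macrophage transcripts (log axis) in each cell type and neutrophil stage, with exact 95% intervals for counting error. Classical monocytes, conventional DCs and pDCs lie between 0.154 and 0.816, with the macrophages at 0.288 and 0.263, while mature neutrophils lie at 41.7 and 36.8; SCD non-classical monocytes, at 22.0, rest on 3 macrophage transcript UMIs.

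In neutrophils taken as a whole, Slc40a1 was lower in the SCD library, at 577 CPM (566 to 589) in wild-type cells and 146 CPM (142 to 149) in SCD cells, with a log2 ratio of -1.99 (-2.03 to -1.94) or 3.97-fold. Of the 6 members expressed in neutrophils (20 UMIs or more and 50 CPM or more in either library), 5 were at least 2-fold lower by CPM and 0 at least 2-fold higher. Across all genes expressed there, 21.9% were at least 2-fold lower and 2.41% at least 2-fold higher. Slc11a1 was at 125 and 29.9 CPM, with a log2 ratio of -2.06 (-2.15 to -1.96). Trf was at 73.3 and 20.6 CPM (-1.83), Fth1 at 4274 and 1385 CPM (-1.63) and Ftl1 at 4189.9 and 1789 CPM (-1.23). The exception was Ncoa4, at 95.4 and 126 CPM, with a log2 ratio of 0.40 (0.32 to 0.48). CPM is relative to depth, which differed, at a median of 2449 UMIs per wild-type and 6869 per SCD neutrophil. In mean UMIs per cell, SCD over wild-type was 0.58 for Slc40a1, 0.55 for Slc11a1 and 0.65 for Trf. It was 0.75 for Fth1, 0.98 for Ftl1 and 3.03 for Ncoa4. Per cell, none of the 5 was thus 2-fold lower, and Ftl1 was nearly level. By CPM the median log2 ratio over the 6 members was -1.73, beside -0.41 over all 2494 genes expressed in neutrophils. Scaling by the median of ratios moved every neutrophil ratio up by 0.20 and left all 5 past 2-fold.

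The neutrophils of the libraries differed in maturity. Clusters named promyelocyte, immature, between and mature from granule and late genes held 68, 410, 137 and 3724 wild-type cells and 731, 3322, 1285 and 1739 SCD cells. Mature cells were 3724 of 4339 wild-type neutrophils (85.8%) and 1739 of 7077 SCD neutrophils (24.6%), and immature cells 410 of 4339 (9.45%) and 3322 of 7077 (46.9%). A share of 1 suspension depends on the enrichment, and these shares describe the libraries compared. By CPM, Slc40a1 climbed along the stages in both libraries. In the wild-type library it was 86.4 CPM in promyelocytes, 143 in immature cells, 224 in the cells between and 899 in mature cells, and in the SCD library 71.5, 119, 167 and 509.6 CPM. Neighbouring stages did not overlap in their CPM intervals within either library. Depth fell along the stages, from a median of 22761.5 and 20732 UMIs per promyelocyte to 2327.5 and 2707 per mature cell. In mean UMIs per cell Slc40a1 fell to the cells between and rose again in mature cells. It was at 2.10, 1.47, 1.21 and 2.18 in wild-type cells and 1.52, 1.13, 0.865 and 1.48 in SCD cells. At each stage the SCD library was the lower by CPM, with log2 ratios of -0.27 (-0.53 to -0.01), -0.26 (-0.39 to -0.13), -0.43 (-0.66 to -0.18) and -0.82 (-0.88 to -0.75), of which none was past 2-fold. Before the mature stage the ratios kept their direction over the alternatives. They ranged from -0.35 to -0.08, from -0.38 to -0.20 and from -0.81 to -0.03. The ratio in mature cells kept its direction but ranged from -1.48, with at least 1000 genes per cell, to -0.25, at a coarser clustering, over 17 alternatives. It was also past 2-fold with each library clustered on its own (-1.19) and with the stage set by each cell's own UMIs (-1.10).

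**Figure D3:**
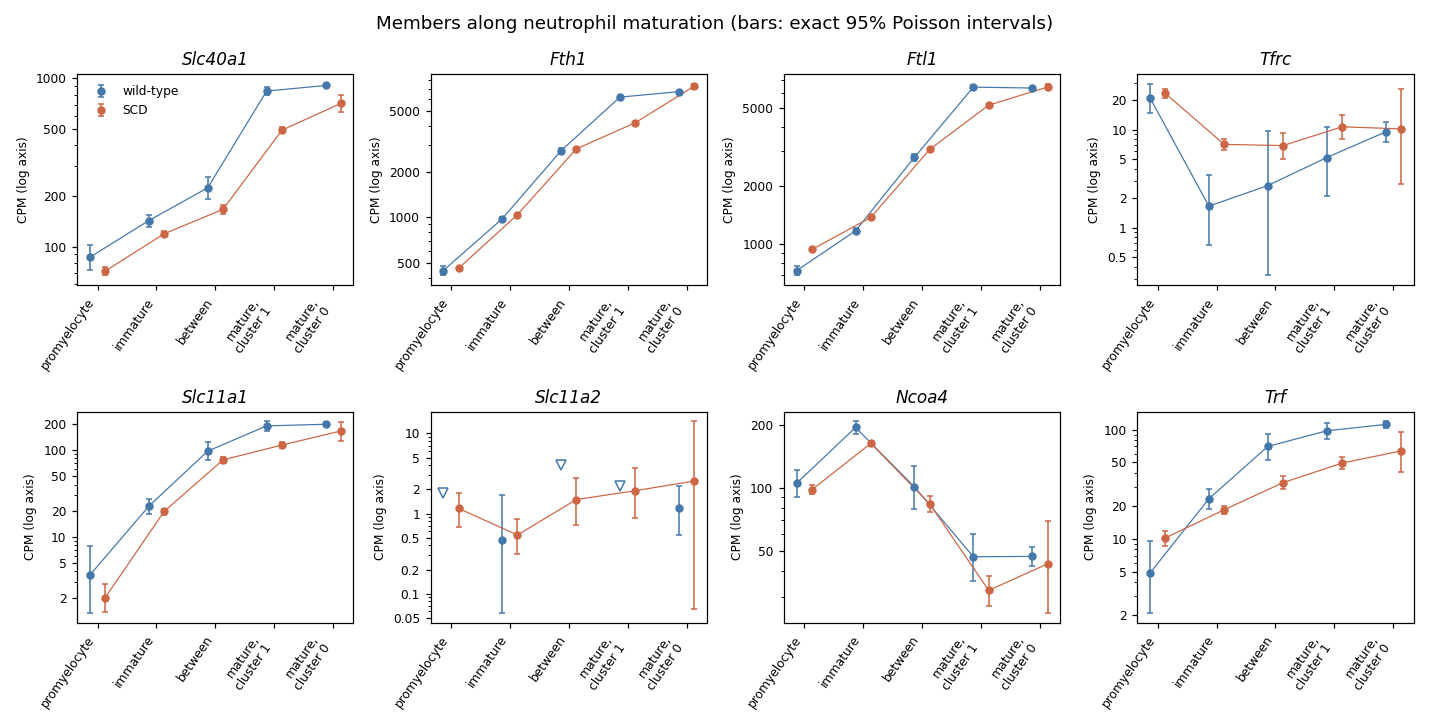
Level of each of the 8 genes (CPM, log axis) in promyelocyte, immature, between and mature neutrophils of the wild-type and the SCD library, with exact 95% Poisson intervals for counting error; open triangles mark genes listed at 0, drawn at the level of 3 UMIs. By CPM, Slc40a1, Fth1, Ftl1 and Slc11a1 climb toward the mature stage in both libraries, whereas Ncoa4 is highest in immature cells, at 194 and 163 CPM.

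When the wild-type level of each stage was weighted by the share of the SCD neutrophils' UMIs that each stage held (26.4% in promyelocytes, 53.6% in immature cells, 11.4% in the cells between and 8.61% in mature cells), the wild-type level of Slc40a1 came to 202 CPM instead of 577 CPM. The log2 ratio went from -1.99 to -0.47, or 1.39-fold lower in SCD. The same weighting brought Slc11a1 from -2.06 to -0.45, Trf from -1.83 to -0.59, Fth1 from -1.63 to -0.14 and Ftl1 from -1.23 to 0.08, and turned Ncoa4 from 0.40 to -0.23. None of these 6 was past 2-fold at equal stages. Over the alternatives the weighted Slc40a1 ratio ranged from -0.76 to -0.23.

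Within mature neutrophils, 3.69% of all expressed genes were at least 2-fold lower and 1.51% at least 2-fold higher, and of 5 expressed members 1 was lower (Trf) and 0 higher. The median over the 5 was -0.74, beside -0.30 over 2521 genes, and scaling moved this stage up by 0.23. The class was itself made of 2 clusters held unequally by the libraries. The cluster led by Il1b and Dusp1 had 3174 wild-type and 184 SCD cells, and that led by Ifitm1 and Wfdc17 had 550 and 1555. Slc40a1 was lower in SCD in both, at 909 and 711 CPM in the first (-0.35 (-0.53 to -0.18)) and 841 and 493 CPM in the second (-0.77 (-0.88 to -0.67)). Fth1 went different ways, at 6715 and 7300.2 CPM in the first (0.12 (0.07 to 0.17)) and 6187 and 4196 CPM in the second (-0.56 (-0.60 to -0.52)). Trf was lower in both, at 111 and 63.7 CPM and 97.4 and 49.3 CPM, though past 2-fold in neither. Within either mature cluster no expressed member was past 2-fold. In immature neutrophils 0 of 4 expressed members passed 2-fold, where 0.266% of genes were lower and 0.106% higher, and their median of -0.08 lay beside -0.06 over all genes.

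The ferritin chains Fth1 (ENSMUSG00000024661, chr19:9980598-9985098, plus strand) and Ftl1 (ENSMUSG00000050708, chr7:45457944-45459884, minus strand) were seen in most cells of each compared class, with the lowest share for Fth1 in SCD erythroid cells (84.6%). Both were higher in SCD red pulp macrophages. Fth1 was at 8055 CPM (7839 to 8275) in wild-type cells and 14086 CPM (13726 to 14452) in SCD cells, with a log2 ratio of 0.81 (0.75 to 0.86). Per cell, the median went from 8069.9 CPM (4802 to 11371 CPM) to 15037 CPM (9311 to 22117 CPM), so that the typical macrophage differed and not only the sum. Ftl1 was at 12002 CPM (11738 to 12270.4) in wild-type cells and 20406 CPM (19973 to 20846) in SCD cells, with a log2 ratio of 0.77 (0.72 to 0.81), with a median per cell of 12993 and 22999 CPM. The ratio of Fth1 ranged from 0.45 to 0.92 over 13 alternatives and that of Ftl1 from 0.41 to 0.82 over 13 alternatives. Neither passed 2-fold. In red pulp macrophages 3.95% of expressed genes were at least 2-fold higher and 8.05% lower, while 0 of 6 expressed members were past 2-fold either way, and the members' median of 0.41 lay beside -0.05 over 3849 genes. A pseudogene of Ftl1 with its own counts, Ftl1-ps1, was at 134 and 225 CPM, and how many reads fitted both loci was not measured.

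Along the neutrophil stages Fth1 climbed from 447 and 463 CPM in promyelocytes through 979 and 1044 CPM in immature cells and 2749 and 2824 CPM in the cells between to 6636 and 4437 CPM in mature cells. The libraries were closer up to the last stage, with log2 ratios of 0.05 (-0.06 to 0.16), 0.09 (0.05 to 0.14) and 0.04 (-0.03 to 0.11), than in mature cells, at -0.58 (-0.60 to -0.56). Over the alternatives the earlier ratios ranged from -0.22 to 0.17, from -0.41 to 0.15 and from -0.15 to 0.24. No direction can be given at those stages. The ratio in mature cells ranged from -0.87 to 0.12 over 17 alternatives, with the turned direction in the cluster led by Il1b and Dusp1. Ftl1 climbed likewise, from 734 and 943 CPM to 6343 and 5269 CPM, and its ratio went from 0.36 (0.28 to 0.45) in promyelocytes to -0.27 (-0.29 to -0.25) in mature cells, which scaling brought to -0.04 and which was 0.0065 without the upper limit on genes, so no direction can be given for Ftl1 at that stage. In pDCs, Fth1 was at 6788 CPM in wild-type cells and 5439 CPM in SCD cells (-0.32 (-0.34 to -0.30)) and Ftl1 at 1598 and 1607 CPM (0.01 (-0.03 to 0.05)). The pDCs formed 2 clusters, and Fth1 was at 7188 and 6593 CPM in the larger (649 and 328 cells) and at 3024 and 3986 CPM in the smaller (64 and 230 cells). In conventional DCs the ratios were small for both, at -0.02 (-0.04 to 0.01) and 0.14 (0.11 to 0.16). By their sums the mature DCs among them, marked by Ccr7 and Fscn1, differed in the light chain, at 4973 and 7862 CPM (0.66 (0.61 to 0.71)). They differed less by the sums, in the opposite direction, in the heavy chain, at 1739 and 1389.9 CPM (-0.32 (-0.44 to -0.21)). Medians per cell were 4150 and 5189 CPM for the light chain and 1475 and 1157 CPM for the heavy chain.

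Non-classical monocytes, the patrolling monocytes marked by Ace and Treml4, stood apart from the classical ones. Of 5 expressed members 3 were at least 2-fold higher in SCD (Slc40a1, Fth1 and Ftl1) and 1 at least 2-fold lower (Trf), where 2.69% of all expressed genes were higher and 2.23% lower. The members' median was 1.24, beside -0.01 over 3720 genes. The class held 432 wild-type and only 54 SCD cells. Fth1 was at 3741 CPM (3673 to 3811) in wild-type cells and 13203 CPM (12828 to 13585) in SCD cells, with a log2 ratio of 1.82 (1.77 to 1.87). The sum leaned on few cells, since 5 of the 54 SCD cells held 47.3% of its UMIs, but the median cell was higher too, at 2302 CPM among wild-type cells and 4341 CPM among SCD cells. Above 10000 CPM lay 30 of 432 wild-type and 15 of 54 SCD cells. Ftl1 was at 5469 and 12903 CPM (1.24 (1.19 to 1.29)), with medians of 4056 and 5856 CPM. Slc40a1 was at 38.9 and 185 CPM (2.25 (1.79 to 2.69)), but its 66 SCD UMIs lay in 6 of 54 cells, with 97.0% in 5 of them, against 42 of 432 cells in the wild-type library. After thinning, 3.74% (2.15 to 6) and 5.56% (1.16 to 15.4) of the cells held a UMI, shares whose intervals overlap.

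In the same cells Hmox1, which encodes the enzyme that breaks heme down and frees its iron, was at 406 and 2101 CPM, with 61.2% of its SCD UMIs in 5 of the 54 cells and a median SCD cell at 240 CPM. Spic, a factor of red pulp macrophages, was at 40.9 and 291 CPM and was seen in 51 of 432 and 22 of 54 cells. Of the monocyte genes, Csf1r was at 1129 and 1064 CPM, Treml4 at 457 and 482 CPM and Ace at 1259.5 and 905 CPM. The 6 macrophage transcripts together had 81 wild-type and 3 SCD UMIs there, all 3 of Axl, with C1qa, C1qb, C1qc, Vcam1 and Cd5l at 0 in the SCD cells. Neutrophil genes differed in both directions in these monocytes. The granule genes Camp, at 43.9 and 384 CPM, and Ngp, at 49.8 and 288 CPM, were higher in SCD. S100a8, at 2945 and 1731 CPM, and S100a9, at 3239 and 2308 CPM, were lower by their sums but higher in the median cell, at 275 and 1972 CPM and at 371 and 2468 CPM. Ly6g had 10 and 4 UMIs, and the globin gene Hba-a1 was at 90.0 and 381 CPM, with 69.9% of its SCD UMIs in 5 cells. The part of these transcripts in the result was not tested. Spic, Hmox1 and the other companions were looked at after the values had been seen. Over 12 alternative settings, chosen after seeing the data, the log2 ratio ranged from 1.79 to 2.05 for Fth1, from 1.20 to 1.41 for Ftl1 and from 2.20 to 4.80 for Slc40a1. Trf, at 103 and 50.4 CPM (312 and 18 UMIs), ranged from -1.44 to -0.88 and was no longer past 2-fold with at least 1000 genes per cell (-0.99), without the mitochondrial and ribosomal filter (-0.97) and in cells with no macrophage transcript (-0.88).

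Ncoa4 (ENSMUSG00000056234, chr14:32159865-32179855, plus strand), the receptor that brings ferritin to the lysosome, was highest in the filtered erythroid cells, at 604 CPM (533 to 682) in wild-type cells and 867 CPM (744 to 1005) in SCD cells. This place did not hold without the upper limit on genes per cell, where the class was at 43.8 and 27.2 CPM, below neutrophils and red pulp macrophages. In the filtered cells red pulp macrophages came next, at 363 and 539 CPM. Their log2 ratio of 0.57 (0.30 to 0.84) ranged from 0.13 to 0.62 over 13 alternatives. Among neutrophils the order of Ncoa4 was the reverse of that of ferritin from the immature stage on. Immature cells held 194 and 163 CPM, the cells between 101 and 83.7 CPM and mature cells 47.0 and 33.2 CPM. At each of these stages the SCD library was the lower, with log2 ratios of -0.25 (-0.36 to -0.14), -0.27 (-0.62 to 0.10) and -0.50 (-0.77 to -0.24), although it was the higher over all neutrophils. In mature cells the direction was lost with at least 1000 genes per cell (0.024). Monocytes held 34.3 and 37.7 CPM, conventional DCs 53.7 and 48.4 CPM and pDCs 107 and 98.7 CPM. Neutrophils held 31.8% of the Ncoa4 UMIs of wild-type cells and 73.0% of those of SCD cells.

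Tfrc (ENSMUSG00000022797, chr16:32608920-32632794, plus strand), the receptor that takes up transferrin, was highest in the filtered erythroid cells, which need iron for hemoglobin, and next in pDCs. Without the upper limit on genes per cell the erythroid class was at 248 and 256 CPM, in SCD below the pDCs. Filtered erythroid cells held 490.5 CPM (427 to 561) in wild-type cells and 1381 CPM (1225 to 1552) in SCD cells, with a log2 ratio of 1.49 (1.23 to 1.76). In pDCs Tfrc was at 218 CPM (208 to 229) in wild-type cells and 334 CPM (319 to 351) in SCD cells (0.62 (0.52 to 0.71)). The pDC value came from 1 of the 2 clusters. The larger cluster was level, at 225 and 229 CPM, whereas the smaller, led by Ly6d, Upb1 and Runx2, was at 155 CPM (118 UMIs in 64 cells) and 467 CPM (1065 UMIs in 230 cells). Tfrc was itself among the 10 leading genes of that smaller cluster, but it had been left out of the genes used to cluster. Summed levels of 7 genes of cell division were at 393 CPM in wild-type and 1269 CPM in SCD pDCs, and their part in the result was not tested. Conventional DCs went the other way, at 64.2 CPM (60.8 to 67.8) in wild-type cells and 41.0 CPM (36.3 to 46.2) in SCD cells (-0.65 (-0.84 to -0.46)). cDC2s held 82.0 and 61.1 CPM and cDC1s 23.5 and 20.8 CPM. The main cDC2 cluster (1398 and 213 cells) was level, at 91.7 and 99.1 CPM, and the other, led by Cd209a (154 and 139 cells), was at 27.9 and 25.5 CPM. The make-up of the conventional DCs differed, with 155 of 2447 wild-type and 201 of 653 SCD cells being cDC1s, and its part in the lower sum was not tested. Neutrophils, both kinds of monocyte and red pulp macrophages held at most 30.8 CPM. Among immature neutrophils Tfrc had 7 wild-type and 223 SCD UMIs, or 1.66 and 7.08 CPM (2.09 (1.03 to 3.42)), which is under the level required here to count as expressed. That ratio ranged from 0.42 to 2.25 over 15 alternatives, with the lowest value when each library was clustered on its own. Of 5 members expressed in pDCs 0 passed 2-fold (0.911% of genes higher, 0.342% lower), with a median of -0.11 beside 0.00. Of 5 expressed in conventional DCs 0 passed (2.41% higher, 4.47% lower), with a median of -0.02 beside -0.09.

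In erythroid cells 2 of 6 expressed members (Slc40a1 and Tfrc) were at least 2-fold higher in SCD and 0 lower. Of all genes expressed there 34.3% were at least 2-fold higher and 5.84% lower, so the members' count lay near the background. Counts of the 4 mouse globin genes took 487274 CPM in wild-type cells and 195276 CPM in SCD cells of the class, of which alpha globin took 116592 and 189501 CPM and beta globin 370682 and 5775 CPM, and cells of the class had a median of 7747 and 2550 UMIs. Scaling by the median of ratios moved the class down by 0.86. On that scale Tfrc had a log2 ratio of 0.63, Slc40a1 of 0.39, Fth1 of 0.11, Ftl1 of 0.03 and Ncoa4 of -0.34, the last with its direction turned. The 6 macrophage transcripts were at 657 and 2351 CPM in these cells, and Slc40a1 per such transcript was 0.391 (0.311 to 0.488) and 0.26 (0.212 to 0.318). In the macrophages it was 0.288 (0.276 to 0.299) and 0.263 (0.251 to 0.275), so the wild-type erythroid ratio lay above it and the SCD one overlapped it. The part of macrophage transcripts in the erythroid values was not tested.

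Most erythroid precursors lay outside the filtered cells. The upper limit of 5000 detected genes removed 295 wild-type and 1220 SCD cells that met the other filters, and these held 47.7% and 73.5% of the Tfrc UMIs of cells that met the other filters. Among them 161 and 555 cells were erythroid in a clustering without the limit, with Klf1, the erythroid master regulator, at 266 and 281 CPM. In those precursors Tfrc was level, at 236 and 242 CPM. Slc11a2 was too, at 50.7 CPM (47.0 to 54.5) and 47.1 CPM (45.1 to 49.1). Slc40a1 was at 65.9 and 49.1 CPM, and Fth1 at 2700.5 and 3395 CPM. With the limit lifted, the whole erythroid class (248 and 691 cells) had Slc40a1 at 71.9 and 51.9 CPM, with a log2 ratio of -0.47, so the direction seen in the filtered cells turned. Tfrc then had a log2 ratio of 0.044.

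Slc11a2 (ENSMUSG00000023030, chr15:100387898-100425072, minus strand), which encodes the endosomal iron transporter DMT1, was low in every class of filtered cells, with no compared class above 25.2 CPM and 5 and 0 UMIs in wild-type and SCD erythroid cells. The 0 SCD UMIs allow up to 14.7 CPM, the level of 3 UMIs, which is the one-sided 95% limit for a count of 0. It met the level required to count as expressed in none of the compared classes, and no direction was read from it. Conventional DCs held 57.1% of the 483 Slc11a2 UMIs of kept wild-type cells, at 13.4 CPM, and 14.2% of the 395 of kept SCD cells, where monocytes held 32.9%. Counted over all cells that met the other filters, 61.0% of wild-type and 85.6% of SCD Slc11a2 UMIs lay in cells above the limit on genes.

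Trf (ENSMUSG00000032554, chr9:103204001-103230444, minus strand), known mainly as a product of the liver, was highest in red pulp macrophages, at 2302 CPM (2188 to 2421) in wild-type cells and 2019.8 CPM (1885 to 2162) in SCD cells, with a log2 ratio of -0.19 (-0.31 to -0.07). The ratio ranged from -0.76 to 0.074 over 13 alternatives and turned with at least 1000 genes per cell, so no direction can be given. After thinning, 83.0% (77.4 to 87.8) of wild-type and 78.5% (70.6 to 85.1) of SCD macrophages held a UMI. Classical monocytes held 259 and 95.9 CPM (-1.44 (-1.53 to -1.34)). Different clusters made up that class in the libraries. The cluster led by Apoe held 524 wild-type and 32 SCD cells, that led by Vcan 46 and 871, and a dividing cluster 46 and 388. Trf was at 297 and 545 CPM in the first, at 136 and 121 CPM in the second and at 77.8 and 39.7 CPM in the third. The median cell of the first was lower in SCD, at 225 and 157 CPM, against the direction of its sum. The direction of the sums thus varied between clusters, and the part of the change of cluster in the lower sum was not tested. In mature neutrophils Trf was at 109 CPM (103 to 116) in wild-type cells and 50.4 CPM (44.4 to 57.0) in SCD cells, with a log2 ratio of -1.12 (-1.32 to -0.92), which scaling brought to -0.89, no longer past 2-fold. The cells between immature and mature held 70.1 and 32.6 CPM (-1.10 (-1.54 to -0.64)). That ratio ranged from -1.24 to -0.41 over 14 alternatives and stayed past 2-fold in 6 of them, and the one in mature cells ranged from -1.61 to -0.81 and stayed past 2-fold in 12 of 17.

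Slc11a1 (ENSMUSG00000026177, chr1:74375195-74386062, plus strand), the phagosomal transporter NRAMP1, was highest in red pulp macrophages and non-classical monocytes and near 0 in pDCs, at 2.40 and 1.75 CPM. Red pulp macrophages did not differ by more than counting error, at 337 CPM (294 to 384) in wild-type cells and 331 CPM (278 to 392) in SCD cells (-0.02 (-0.34 to 0.29)). Non-classical monocytes held 273 and 361 CPM (0.40 (0.12 to 0.67)) and classical monocytes 110.2 and 55.3 CPM (-0.996 (-1.13 to -0.86)). In classical monocytes the cluster led by Apoe was at 126 and 141 CPM, that led by Vcan at 55.8 and 73.5 CPM and the dividing one at 35.1 and 25.2 CPM. Over all monocytes Slc11a1 and Trf were the 2 of 4 expressed members at least 2-fold lower in SCD, at 160.1 and 61.1 CPM and 212 and 95.03 CPM, and 0 were higher. There 6.72% of expressed genes were lower and 3.63% higher, and the members' median was -0.73 beside -0.08. The 432 wild-type against 54 SCD non-classical cells, which held more Slc11a1 than the classical ones, enter that sum. In neutrophils Slc11a1 climbed by CPM with maturation as Slc40a1 did, from 22.5 and 19.6 CPM in immature cells to 97.0 and 77.0 CPM in the cells between and 197 and 118 CPM in mature cells (-0.74 (-0.87 to -0.60)).

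Of 25 other genes of iron handling (regulators, reductases, chaperones, mitochondrial importers and iron-sulfur genes), 6 were expressed in neutrophils, and 3 of them were at least 2-fold lower in SCD, where 21.9% of all expressed genes were. Fbxl5, which marks iron regulatory protein 2 for destruction when iron is ample, was at 323 CPM in wild-type cells and 93.9 CPM in SCD cells, with a log2 ratio of -1.78 (-1.84 to -1.73). Iscu, the scaffold on which iron-sulfur clusters are built, was at 166 CPM in wild-type cells and 65.1 CPM in SCD cells, with a log2 ratio of -1.35 (-1.42 to -1.28). Steap4, a metalloreductase, was at 54.6 CPM in wild-type cells and 14.3 CPM in SCD cells, with a log2 ratio of -1.94 (-2.08 to -1.80), yet in mature neutrophils it was at 94.2 CPM in wild-type cells and 159 CPM in SCD cells, with a log2 ratio of 0.76 (0.62 to 0.90). In mature neutrophils 0 of 7 expressed were past 2-fold. In red pulp macrophages 1 of 8 was, a share near the 8.05% of all genes there, with Fbxl5 at 119 CPM in wild-type cells and 50.8 CPM in SCD cells, with a log2 ratio of -1.23 (-2.00 to -0.52), from 78 and 21 UMIs. In monocytes 2 of 7 were lower, Hfe, at 149 and 42.6 CPM, and Slc46a3, at 50.5 and 12.9 CPM, beside 6.72% of all genes. In non-classical monocytes 1 of 9 was higher, Nfs1, which supplies sulfur for iron-sulfur clusters, at 23.1 and 50.4 CPM from 70 and 18 UMIs, beside 2.69% of all genes. None of 7 in conventional DCs, 4 in pDCs and 4 in erythroid cells passed 2-fold. The median log2 ratio of these genes was -1.06 in neutrophils and -0.19 in red pulp macrophages, beside -0.41 and -0.05 over all genes.

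The genes whose levels most resembled those of each member were ranked by Pearson correlation of log2(CPM + 5) over 12 points, 6 cell types in 2 libraries, among 5697 genes. The points share libraries and depth, so this is a description. For Slc40a1 they were Ptgs1 (0.96), Hcar2 (0.95) and Il18bp (0.94), and over 8 neutrophil points (4 stages in 2 libraries, 3267 genes) Hps3, Slc44a2 and Atp6v1f. For Ftl1 they were Ftl1-ps1, the heme oxygenase gene Hmox1 (0.98) and Clec4n. For Trf they were Zfp703, Tmem26 and Nr1h3 (0.97), and for Ncoa4 Wbp2, Abcb4 and the erythropoietin receptor gene Epor (0.93). For Fth1 they were Pdcd2l, Il10rb and Slc37a2, for Slc11a1 Cyb5r1, Tnfrsf21 and Sec14l1, and for Tfrc Fryl, Btrc and Rnf123. Slc11a2 was under the minimum level.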

How the data were processed

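Single-cell RNA sequencing (10x Genomics 3′ v3.1) was run on 1 wild-type and 1 SCD spleen suspension. The deposited matrices hold raw counts of UMIs. Per the submitters' processing notes, Cell Ranger 4.0.0 and build GRCm38.p6 were used, and the values were deposited without normalization or the cell filters of the study. The members and all lists were chosen with earlier results of these data known.

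Cells with 500 to 5000 genes, under 15% mitochondrial and under 30% ribosomal UMIs were kept, following the study. Genes seen in at least 20 cells were scaled with scran 1.30.0 (R 4.3.3), reduced to 30 principal components on 2000 variable genes without the 33 iron genes, and clustered with both libraries together (15 neighbours, Leiden resolution 1, scanpy 1.11.5, Python 3.11.15). Clusters were named from the marker lists by their 8 best markers, with a margin of 0.05 over the next class, and stayed unnamed where over 25% of the cells were called doublets. Scrublet marked 358 wild-type (3.80%) and 196 SCD cells (1.84%), which were kept in the reported values and left out in an alternative.

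The UMIs of a class and library were summed and given as CPM without a pseudocount. Intervals are exact (Poisson for levels, Clopper-Pearson for shares and, conditionally, for ratios). A gene counted as expressed with 20 UMIs or more and 50 CPM or more in either library and as past the threshold at 2-fold. No test across samples was possible. Cells were thinned to 1000 UMIs to compare shares. All members are named. Of the other iron genes, those past 2-fold in neutrophils or red pulp macrophages are named, and Hfe, Slc46a3 and Nfs1 were added after their values were seen. The 3 genes most like each member were ranked with a pseudocount of 5 CPM. Positions and UTRs are from GENCODE vM21 (GRCm38). The calculation was tested on simulated data. Alternatives covered pseudocounts, scaling, weighting of cells, filters, doublets, clustering and naming of stages.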

Additional observations from a re-analysis of the deposited data

Results flagged for a closer look

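Slc40a1 differed in opposite directions between classes. Its log2 ratio of SCD over wild-type was -1.99 in neutrophils, 2.25 in non-classical monocytes and 1.25 in erythroid cells. Fth1 was at -1.63 in neutrophils and 1.82 in non-classical monocytes, and Ftl1 at -1.23 and 1.24. With 1 library per group, the difference between the classes was not tested for any of these genes. The neutrophil values shrank at equal stages, the non-classical Slc40a1 value rested on 6 SCD cells and the erythroid value turned once the limit on genes was lifted.

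A signal also appeared in cells that the comparisons left out. Cells above the limit of 5000 genes held 73.5% of the Tfrc UMIs and 85.6% of the Slc11a2 UMIs of the SCD library, against 47.7% and 61.0% in the wild-type library, counted over cells that met the other filters.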

How the results depend on the processing

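The 5 neutrophil members past 2-fold by CPM stayed at 5 under all 15 alternatives, none of which compared UMIs per cell. There were 11 log2 ratios past 2-fold in neutrophils, their stages, all monocytes and erythroid cells. Of their 153 alternative values, 152 kept the direction and 129 stayed past 2-fold. The exception was Slc40a1 in erythroid cells, at -0.47 without the upper limit on genes. Non-classical monocytes were followed over their own 12 settings, where 3 brought Trf under 2-fold, and no alternative was run for classical monocytes alone. Slc40a1 in neutrophils (-1.99) moved to -1.79 with median-of-ratios scaling, -1.74 as a mean of per-cell CPM, -1.83 with at least 1000 genes per cell and -1.92 with each library clustered on its own. Slc40a1 in red pulp macrophages (0.24) moved to -0.098 as a mean of per-cell CPM, 0.49 with at least 1000 genes, -0.32 without the mitochondrial and ribosomal filter, 0.088 with doublets removed, 0.15 with total count normalization, 0.10 at resolution 0.5 and 0.11 with each library on its own. The stage-weighted ratio (-0.47) moved to -0.70 with at least 1000 genes, -0.24 without the upper limit, -0.23 without the mitochondrial and ribosomal filter, -0.43 with doublets removed, -0.33 at resolution 0.5, -0.76 with each library on its own and -0.64 with the stage set by each cell's own UMIs. The cause of these shifts was not tested. No paired analysis was possible because there was 1 sample per group, so no replicate could be left out either. Low counts limit Slc11a2, and 54 SCD cells limit the non-classical monocytes.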

Other observations

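An unnamed cluster of 143 wild-type and 131 SCD cells, led by the erythroid genes Klf1, Car2, Hba-a1 and Ermap together with Igkc, passed the filters without matching a single class. In it Tfrc was at 184 CPM in wild-type cells and 654 CPM in SCD cells, Fth1 at 2287 and 5542 CPM and Ftl1 at 1325 and 2901 CPM. Its cells had a median of 5342 and 3287 UMIs.

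Trf also differed between clusters of DCs. In the smaller pDC cluster it was at 209 CPM in wild-type cells (159 UMIs in 64 cells) and 33.7 CPM in SCD cells (77 UMIs in 230 cells), and in the larger at 40.0 and 59.5 CPM. In the cDC2 cluster led by Cd209a it was at 279 and 160 CPM, against 28.4 and 18.4 CPM in the main cDC2 cluster.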
